A study of Homo sapiens with 15 samples.

Results

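The genes described here are the axon guidance ligands and receptors of 3 signalling systems. These are the ephrins (EFNA, EFNB) with their Eph receptors (EPHA, EPHB), the Slits with their Robo receptors, and the semaphorins. The semaphorins are those of classes 3 to 7 (SEMA3 to SEMA7), with the plexins (PLXN) and neuropilins (NRP) that receive them. The genes were picked by symbol, with earlier results of these data known, and 60 of the 19684 genes in the deposited tables matched. There were 31 ligands, namely 8 ephrins, 20 semaphorins and 3 Slits, and 29 receptors, namely 14 Eph receptors, 9 plexins, 2 neuropilins and 4 Robo receptors.

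Growing axons carry receptors on their growth cones and turn away from, or towards, ligands that are released or held on neighbouring cells. Ephrins are tied to the membrane and signal by contact, EFNA through a lipid anchor and mainly to EphA receptors, EFNB through a transmembrane form and mainly to EphB receptors. Slits are secreted repellents read by Robo receptors, and class 3 semaphorins are secreted proteins that bind a neuropilin paired with a plexin, while classes 4 to 7 sit at the membrane and most bind plexins directly. In the retina these systems are known for guiding ganglion cell axons to the optic disc and for placing them on the brain's visual map, and many of the same proteins act in vessels, connective tissue and cell migration.

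Poly(A) RNA was sequenced from 15 libraries, 3 in each of 5 groups, all from BC1-GFP, a human induced pluripotent stem cell (hiPSC) line with a GFP reporter and a wild-type genotype. The first group is the undifferentiated hiPSCs, grown on Matrigel in mTeSR1 medium. The next 2 groups are the neural retina layers of retinal organoids (ROs) at day 70 and day 150 of differentiation (D70-ROs and D150-ROs), pooled from several ROs per experiment. The last 2 are induced Müller glial cells (iMGCs), the cells that grew out of dissociated D150-ROs on Matrigel in DMEM with serum, collected on day 5 of passage 1 (P1) and passage 5 (P5). All groups come from 1 line, and the iMGCs were enriched by culture and not by sorting. The methods and sample descriptions give 3 independent experiments per group and the description of the data set gives 2 for hiPSCs and ROs, so that p-values measure the spread between these libraries, which may be partly technical.

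Levels are given as FPKM, the deposited value scaled for transcript length and for the reads of the library, and changes as log2 fold changes fitted by edgeR to the expected counts, later group minus earlier group. Library totals ran from 11349600 to 20398755 expected counts, with a median of 17194154. The lowest was that of D70-RO replicate 2. On log2(FPKM + 1) its Pearson correlation with D70-RO replicates 1 and 3 was 0.990 and 0.988, against 0.996 between those. The fit corrects for a few very abundant genes that take reads from all others and FPKM does not. Between P1 iMGCs and D150-ROs the fitted change of a member was a median of 0.64 above the log2 ratio of its mean FPKM, and 8 members, EFNA5, EPHA5, EPHB6, PLXNA1, ROBO1, SEMA3D, SEMA4F and SEMA5A, had a lower FPKM but a fitted change above 0. None of these 8 was called. The gap was not 1 shift shared by all members. It ran from −0.27 for SEMA6D to 1.03 for NRP1, and its cause was not tested. The libraries are of bulk RNA, in which fewer cells of a type and less RNA per cell cannot be told apart. Whether the counting used strand is not given in the sources used here, so reads of EPHA1 and ZYX, EPHB4 and SLC12A9, EPHA5 and EPHA5-AS1, SEMA3F and SEMA3F-AS1, SEMA6A and its antisense genes, PLXNA3 and LAGE3, PLXNC1 and CEP83, and SEMA4G and MRPL43, whose exons overlap on opposite strands, may be mixed. The same holds for NRP1, NRP2, SLIT3, EFNB2, EPHA4, EPHB1, EPHB2, ROBO4 and SEMA5A, whose exons overlap other genes on the opposite strand. SLIT1 overlaps the readthrough gene ARHGAP19-SLIT1 on its own strand. In the same way EFNA3 and EFNA4 overlap AL691442.1, PLXNB3 overlaps SRPK3 and SEMA3B overlaps MIR6872. Counts of these genes may be split between the partners.

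Markers of other cells moved with the groups. The summed FPKM of 5 pluripotency markers was 3161 to 3344 in hiPSCs, at most 8.96 in ROs and at most 0.61 in iMGCs. A list of 9 retinal ganglion cell markers summed to 47.8 to 55.6 in hiPSCs, 479 to 683 at day 70, 82.4 to 104 at day 150 and at most 2.89 in iMGCs, where POU4F1, POU4F2, ISL1 and ELAVL4 were at 0. A list of 6 photoreceptor markers summed to 51.0 to 55.1 at day 70, 747 to 786 at day 150 and at most 0.56 in iMGCs. The 5 retinal progenitor markers summed to 6.34 to 6.93 in hiPSCs, 875 to 1001 at day 70, 389 to 434 at day 150 and 35.2 to 51.4 in iMGCs, where RAX was at 0. The 5 pigment epithelium markers summed to 120 to 138 in hiPSCs, 82.9 to 133 at day 70, 5.59 to 6.13 at day 150 and 4.37 to 5.83 in iMGCs. Most of the sum in hiPSCs and at day 70 was PMEL, at means of 127 and 102 FPKM. A list of 7 mesenchymal and fibroblast markers summed to 395 to 473 in hiPSCs, 42.6 to 70.6 at day 70, 30.4 to 37.7 at day 150 and 4337 to 4861 in iMGCs. By RNA, the label of Müller glia was met only in part. Of 6 Müller glia markers, VIM, CRYAB, GLUL and SOX9 were above 1 FPKM in the iMGCs. RLBP1 was at 0 in P1 and under 1 in P5, and SLC1A3 was under 1 in P1 and at 1.19 in P5. By immunofluorescence, the paper found SOX9 and GS, the product of GLUL, in P1 and P5 iMGCs. It also found CRALBP, the product of RLBP1, negative from passage 1 on. GLUL fell from 100 FPKM in D150-ROs to 13.4 in P1 and 14.6 in P5, with 77.1 in hiPSCs. SOX9 fell from 42.6 to 5.21 and 3.59, with 4.94 in hiPSCs. VIM rose from 1065 to 2160 and 2858, and CRYAB from 10.9 to 30.2 and 134. Of 6 endothelial markers, TIE1 alone reached 1 FPKM in iMGCs, and the 4 microglia and 3 astrocyte markers stayed under 1. The part of these cell types in the results below was not tested.

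Most of the 60 genes reached 1 FPKM in the ROs and fewer did in the iMGCs. At least 1 FPKM in all 3 libraries was reached by 43 members in hiPSCs, 51 in D70-ROs, 56 in D150-ROs and 39 in each passage of iMGCs. The median over the 60 mean levels was 4.95 FPKM in hiPSCs, 6.19 in D70-ROs, 8.38 in D150-ROs, 2.17 in P1 iMGCs and 2.60 in P5 iMGCs. The highest mean level of a gene lay in hiPSCs for 15 members, in D70-ROs for 14, in D150-ROs for 18, in P1 iMGCs for 3 and in P5 iMGCs for 10. These values are in FPKM, which in P1 iMGCs against D150-ROs lay a median of 0.64 (log2) under the fitted scale. The same values over all genes are not given here, so they do not set the members apart. Genes high enough to be tested numbered 12855 in D150-ROs against D70-ROs, 57 of them members. In P5 against P1 they numbered 11366, with 42 members. Only ROBO4, a Robo receptor best known from endothelium, stayed under 1 FPKM in all 15 libraries, with a highest value of 0.42 in P5 iMGCs.

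**Figure D1:**
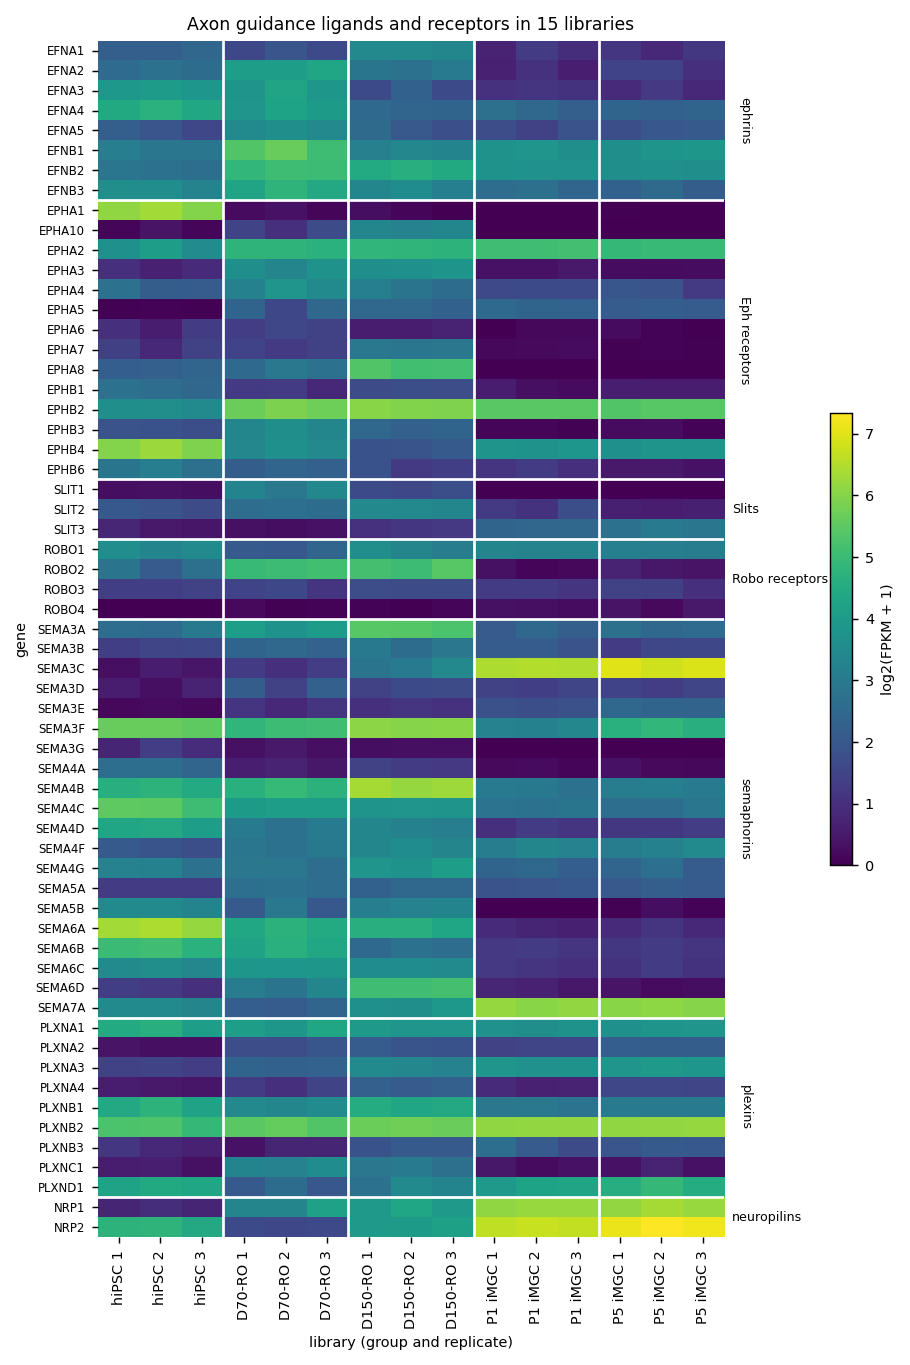
Heat map of log2(FPKM + 1) for the 60 genes (rows, by family) in the 15 libraries (columns, by group). The bright rows change from EPHA1, EPHB4 and SEMA6A in hiPSCs to EPHB2, ROBO2 and EFNB1 in D70-ROs, SEMA4B, SEMA3F and EPHA8 in D150-ROs, and NRP1, NRP2, SEMA3C and SEMA7A in iMGCs.

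The families differed in when they were high. The summed FPKM of the 8 ephrins was 65.3 to 75.7 in hiPSCs, 141 to 174 at day 70, 63.3 to 70.7 at day 150 and 37.0 to 40.8 in the 6 iMGC libraries. Ephrins were thus highest in D70-ROs, and 6 of the 8 had their highest mean there. For EFNA3, among these, the range of 13.0 to 18.4 FPKM overlapped the 13.5 to 15.5 of hiPSCs. The 20 semaphorins summed to 337 to 347 in D150-ROs, above the 265 to 319 of hiPSCs, the 186 to 201 of D70-ROs, the 208 to 210 of P1 iMGCs and the 254 to 261 of P5 iMGCs. These sums are in FPKM, which for the iMGCs lay a median of 0.64 (log2) under the fitted scale, so that the order of D150-ROs and iMGCs is not settled for the semaphorins, whose sums differ by less than that in P5. The 4 Robo receptors were highest in D150-ROs, at 43.1 to 52.4, and lowest in the iMGCs, at 9.42 to 11.2. The plexins varied least, from 84.6 to 143 over all libraries. The neuropilins ran the other way, from 11.1 to 34.3 in the hiPSC and RO libraries to 167 to 178 in P1 and 207 to 242 in P5 iMGCs.

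**Figure D2:**
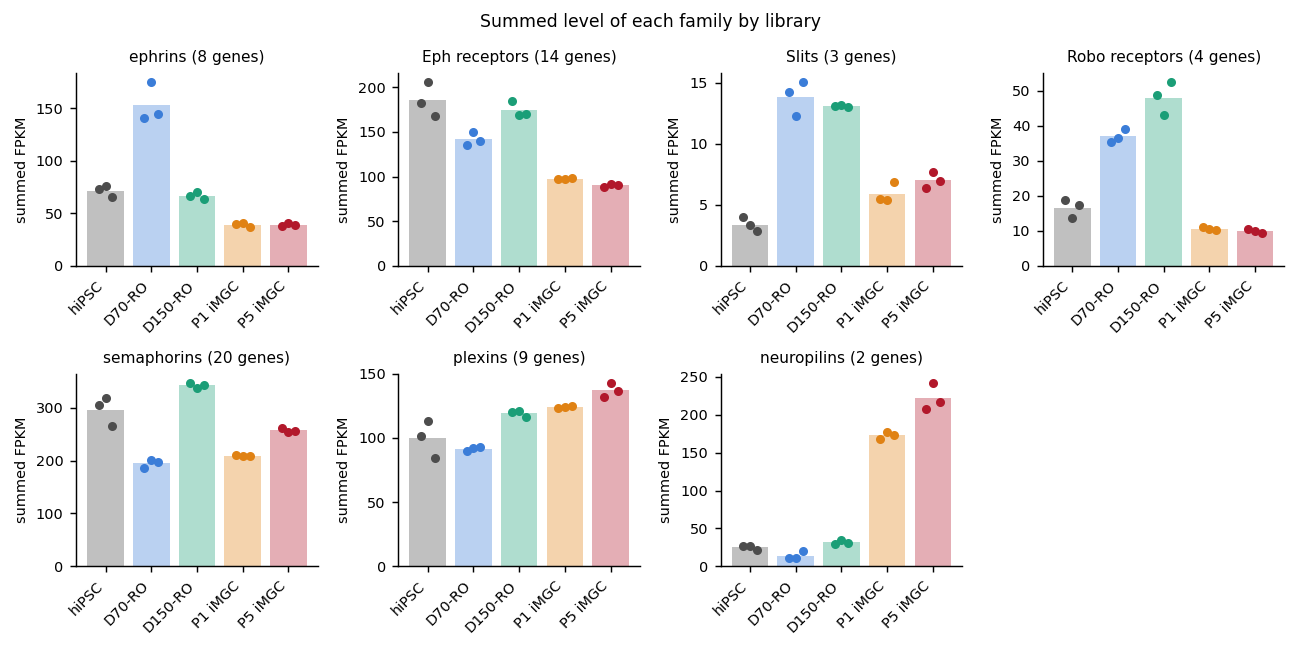
Summed FPKM of each family (y axes, from 0) in the 5 groups; bars are means and points are the 3 libraries of a group. The ephrins peak in D70-ROs, the Robo receptors in D150-ROs and the neuropilins in the iMGCs, and the order of the semaphorin sums of D150-ROs and P5 iMGCs depends on the scale; for the neuropilins the 6 iMGC libraries sit between 167 and 242.

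From hiPSCs to D70-ROs, EPHA1, EPHB4, SEMA6A and NRP2 fell from high levels, and several ephrins, SLIT1, EPHA5, PLXNC1 and NRP1 rose. Of the 54 members tested, 24 were called higher, where 22.5% of all 12954 genes tested were called higher, and 13 lower, where 21.1% were. To be called, a gene had to change at least 2-fold with a p under 0.05 after Benjamini-Hochberg adjustment. The median log2 fold change of the members was 0.54, against 0.02 over all genes tested, and the median size of a change was 1.60 against 0.84. The median transcript length of the members was 4.13 kb against 2.70 kb, and long genes rose slightly more than short ones in this comparison, with a median log2 change of 0.26 in the longest 25% of all genes and −0.11 in the shortest.

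EPHA1, EPHB4 and SEMA6A were the most abundant members in hiPSCs. EPHA1, the founding member of the Eph receptor family, stood at 69.0, 78.4 and 62.5 FPKM in the 3 hiPSC libraries and at 0.17, 0.29 and 0.10 in D70-ROs. It stayed at or under 0.21 in the other 9 libraries, so that no other group came near hiPSCs. Its log2 fold change was −8.81 ± 0.25 (SE, edgeR adjusted p = 5.05e-10). EPHB4, the receptor that pairs with EFNB2 in vessels, fell from 62.3, 74.7 and 59.9 FPKM to 9.57, 12.0 and 9.93 (log2 fold change −2.79 ± 0.15, edgeR adjusted p = 3.07e-08). SEMA6A, a membrane semaphorin that binds class A plexins, fell from 78.3, 86.4 and 71.7 to 20.2, 25.5 and 21.6, or by 1.84 ± 0.13 on the log2 scale (edgeR adjusted p = 3.02e-07).

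The promoter of EPHA1 is shown because its gene had the largest fall of this step. It is the RefSeq window from 250 bases before to 50 after the start, on the minus strand at chr7:143408807-143409106 (GRCh38.p14), and capitals mark TAATCC on either strand, the core that CRX and OTX homeodomain proteins bind.
EPHA1: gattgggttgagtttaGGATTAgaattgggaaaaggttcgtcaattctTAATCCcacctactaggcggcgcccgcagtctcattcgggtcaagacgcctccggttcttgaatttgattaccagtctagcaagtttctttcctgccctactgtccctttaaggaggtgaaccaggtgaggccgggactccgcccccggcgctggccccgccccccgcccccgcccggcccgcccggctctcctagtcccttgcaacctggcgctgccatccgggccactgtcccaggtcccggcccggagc
It holds TAATCC 2 times. The motif occurs at least once in 6 of the 85 promoters listed for 54 of the members, and in 6.36% of all 35116 promoters in the table. None of the other promoters shown here holds this motif, the AP-1 site TGANTCA or the TEAD site CATTCC on either strand, and all promoters shown were searched for the 3. Over all promoters the last 2 motifs occur in 7.71% and 14.0%.

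The neuropilins changed places. NRP2 was at 25.8, 26.4 and 20.8 FPKM in hiPSCs and at 2.13, 2.00 and 2.07 in D70-ROs, a log2 fold change of −3.49 ± 0.15 (edgeR adjusted p = 5.11e-09). NRP1, its close relative and the main receptor for SEMA3A, was at 0.69, 0.96 and 0.70 in hiPSCs and at 9.14, 9.13 and 17.5 in D70-ROs (log2 fold change 4.70 ± 0.19, edgeR adjusted p = 4.5e-09). The ranges did not overlap for either gene, and D70-RO replicate 3 stood above the other 2 for NRP1. The other large falls were those of SEMA4A, from 4.96 ± 0.61 to 0.52 ± 0.12 FPKM (SD, n = 3; log2 fold change −3.47 ± 0.24, edgeR adjusted p = 1.81e-07), and of PLXND1, the receptor of SEMA3E, from 19.3 ± 1.69 to 3.76 ± 1.14 (−3.28 ± 0.18, edgeR adjusted p = 3.55e-08).

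Among the rises, SLIT1 and EPHA5 came from near 0. SLIT1, a Slit of the nervous system, was at 0.21, 0.26 and 0.21 FPKM in hiPSCs and at 8.84, 6.63 and 9.66 in D70-ROs, its highest group (log2 fold change 5.15 ± 0.20, edgeR adjusted p = 3.07e-09). ROBO2, a receptor for Slits, rose with it from 6.04, 3.29 and 5.51 to 30.4, 31.5 and 33.7, while ROBO1 fell from 10.1 ± 1.12 to 3.50 ± 0.67. EPHA5 was at 0.03 to 0.05 in hiPSCs, from 15 counts in all, and at 4.20, 2.01 and 4.63 in D70-ROs (6.47 ± 0.40, edgeR adjusted p = 8.75e-08). PLXNC1, the plexin that binds SEMA7A, went from 0.43 ± 0.15 to 9.45 ± 1.25 (4.71 ± 0.19, edgeR adjusted p = 3.97e-09), and EPHA3 from 0.84 ± 0.21 to 11.2 ± 1.77 (3.57 ± 0.20, edgeR adjusted p = 3.4e-08). All 3 libraries of D70-ROs were above all 3 of hiPSCs for each of these genes.

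EPHB2 became the most abundant member of D70-ROs and 2 of its ligands rose with it. EPHB2, an EphB receptor that marks ventral retina, rose from 11.6, 11.4 and 10.2 FPKM to 51.2, 58.7 and 52.0 (log2 fold change 2.42 ± 0.13, edgeR adjusted p = 3.32e-08). EFNB1, one of its ligands, rose from 7.83, 6.41 and 6.38 to 40.0, 48.5 and 32.5 (2.42 ± 0.17, edgeR adjusted p = 2.82e-07), and EFNB2 from 5.77 ± 0.57 to 30.7 ± 2.31. No ephrin was called lower: EFNA2, EFNA5, EFNB1 and EFNB2 were called higher and EFNA1, EFNA3, EFNA4 and EFNB3 were not called. Of the 13 Eph receptors tested, EPHA3, EPHA4, EPHA5, EPHA6, EPHB2 and EPHB3 were higher and EPHA1, EPHB1 and EPHB4 lower.

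Of the 18 semaphorins tested, 7 were called higher and 6 lower, with calls in both directions in classes 4, 5 and 6. The class 3 genes SEMA3A, SEMA3B, SEMA3C and SEMA3D were higher, with SEMA3A, the classic axon repellent, going from 5.64 ± 1.06 to 14.8 ± 2.13 FPKM. Among class 4, SEMA4A, SEMA4C and SEMA4D were lower and SEMA4F higher, with SEMA4C at 40.4 ± 6.69 in hiPSCs and 15.6 ± 0.61 in D70-ROs. In the smaller classes SEMA5A and SEMA6D were higher and SEMA5B, SEMA6A and SEMA7A lower. Of the 8 plexins tested, PLXNA2, PLXNA3, PLXNA4 and PLXNC1 were higher and PLXNB1 and PLXND1 lower. PLXNB2, a receptor for class 4 semaphorins and the most abundant plexin of every group, was at 34.7 ± 5.47 and 43.7 ± 3.69 FPKM, and its change of 0.13 ± 0.13 was not called (edgeR adjusted p = 0.362). EPHA10, ROBO4, SLIT3, PLXNB3, SEMA3E and SEMA3G did not reach 1 FPKM in 3 of these 6 libraries and were not tested.

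**Figure D3:**
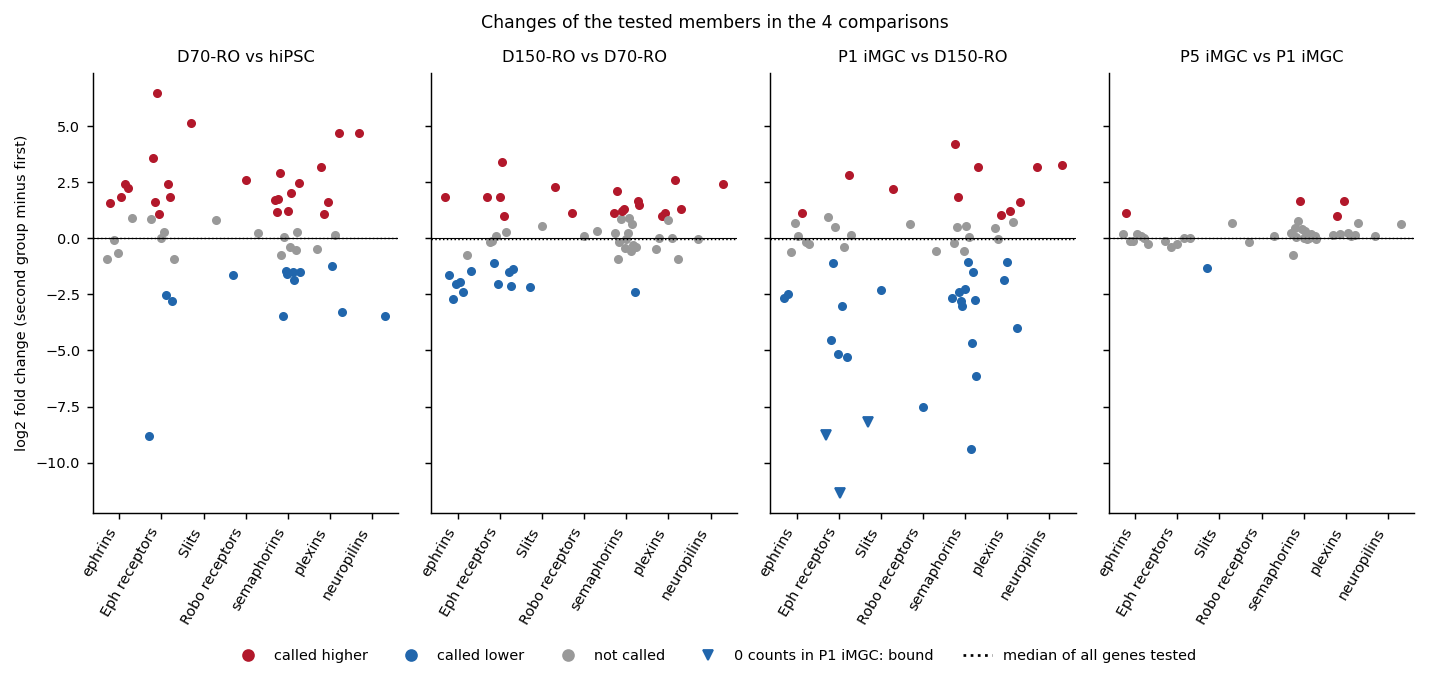
Fitted log2 fold changes (y axis, later group minus earlier) of the members tested, by family, in the 4 comparisons; red and blue points were called higher and lower, grey points were not called, triangles mark EPHA8, EPHA10 and SLIT1, which had 0 counts in P1 iMGCs and are drawn at their bound, and dotted lines are medians over all genes tested. Of the points for P5 against P1 iMGCs, 37 of 42 are grey.

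From D70-ROs to D150-ROs, most ephrins fell and EPHA8, NRP2 and several semaphorins rose. Of the 57 members tested, 18 were called higher, against 16.6% of all 12855 genes tested, and 13 lower, against 16.7%. The median log2 fold change was 0.09 for the members and −0.01 for all genes, and the median size 1.11 against 0.66. Transcript length moved with this comparison, with a median log2 change of −0.67 in the shortest 25% of all genes and 0.55 in the longest. With the length trend removed, 14 members were called higher and 18 lower, with the share of all genes under this setting not given here. EFNB2, PLXNA1, PLXNA2, PLXNC1, SEMA3D and SEMA5A then joined those called lower and SEMA4G those called higher, while EFNA2, EPHB1, PLXNA3, PLXNA4, ROBO1 and SEMA3A lost their calls. D70-ROs are the later group of the first comparison and the earlier group of this one, so that the 2 sets of changes are not independent.

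Of the 8 ephrins, 6 were called lower and EFNA1 higher. EFNB1 fell from 40.0, 48.5 and 32.5 FPKM in D70-ROs to 8.11, 9.61 and 8.94 in D150-ROs (log2 fold change −2.41 ± 0.16, edgeR adjusted p = 2.99e-06). EFNA3 fell from 13.0, 18.4 and 13.8 to 2.13, 3.85 and 2.15 (−2.69 ± 0.26, edgeR adjusted p = 2.07e-05), and its neighbour EFNA4 from 15.4 ± 2.52 to 4.37 ± 0.27. EFNA1, an A-type ephrin first described in endothelial cells, went the other way, from 2.03, 2.84 and 2.06 to 9.96, 9.96 and 9.37. The 3 genes lie side by side on chromosome 1, with 9.32 kb between EFNA4 and EFNA3 and 39.9 kb between EFNA3 and EFNA1, and EFNA4 was 6.36 to 7.24 times EFNA1 in the D70 libraries but 0.42 to 0.47 times in the D150 libraries. EFNB2 was at 22.0 ± 1.17 FPKM in D150-ROs, the highest ephrin there, and its fall was smaller than 2-fold.

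The largest fitted rise was that of EPHA8, an Eph receptor of the developing nervous system. It stood at 4.69, 6.67 and 5.68 FPKM in D70-ROs and at 39.8, 33.6 and 34.7 in D150-ROs (log2 fold change 3.41 ± 0.12, edgeR adjusted p = 1.13e-07), and the ranges were far apart. The log2 ratio of its mean FPKM was 2.66, under the 2.91 of NRP2. EPHA7 and EPHA10 rose as well, from 1.61 ± 0.21 to 6.55 ± 0.14 and from 1.66 ± 0.62 to 9.04 ± 0.42 FPKM. EPHB2 lies 107 kb from EPHA8 on chromosome 1. It was at 65.0, 60.9 and 59.4 in D150-ROs, still the most abundant Eph receptor, and its rise of 0.30 ± 0.11 on the log2 scale was not called (edgeR adjusted p = 0.0328). EPHB4 fell further, to 2.58, 2.73 and 3.24 (−2.11 ± 0.15, edgeR adjusted p = 3.26e-06), and EPHA4, EPHA6, EPHB3 and EPHB6 were also lower.

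The promoter of EPHA8, on the plus strand at chr1:22563239-22563538 (RefSeq, GRCh38.p14), is shown because the gene went from a low level in hiPSCs to its peak in D150-ROs and to 0 in iMGCs. Of its 300 bases 82.7% are G or C, against 62.0% in the promoter of EPHA1, a median of 65.7% over the members' promoters and 58.7% over all promoters.
EPHA8: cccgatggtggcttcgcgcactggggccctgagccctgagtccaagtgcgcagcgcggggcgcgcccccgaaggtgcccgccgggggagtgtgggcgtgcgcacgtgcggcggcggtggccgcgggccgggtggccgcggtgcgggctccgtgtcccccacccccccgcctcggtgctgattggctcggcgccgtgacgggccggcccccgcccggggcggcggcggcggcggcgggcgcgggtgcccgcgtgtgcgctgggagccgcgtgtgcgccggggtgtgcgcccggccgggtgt
It has 51 CpG dinucleotides and the EPHA1 promoter has 21.

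The semaphorins called higher were SEMA3A, SEMA3C, SEMA4A, SEMA4B, SEMA6D and SEMA7A. SEMA4B, a membrane semaphorin, went from 24.3, 29.3 and 25.4 FPKM to 81.3, 71.5 and 75.5 and became the most abundant member of D150-ROs (log2 fold change 1.29 ± 0.10, edgeR adjusted p = 7.59e-06). SEMA3A rose from 16.4, 12.4 and 15.6 to 42.4, 41.8 and 37.5, and SEMA6D from 7.63 ± 1.61 to 33.6 ± 1.24. SEMA3F, which acts mainly through NRP2, was at 27.6, 31.4 and 32.8 in D70-ROs and at 66.0, 63.6 and 64.5 in D150-ROs. Its ranges did not overlap, but its fitted change of 0.85 ± 0.10 stayed under 2-fold (edgeR adjusted p = 9.07e-05). SEMA3C was still low, at 6.08, 7.03 and 9.96, after 1.48, 1.01 and 1.51 in D70-ROs (2.10 ± 0.22, edgeR adjusted p = 3.19e-05). Of the 19 semaphorins tested, SEMA6B was called lower, from 20.7 ± 3.25 to 5.24 ± 0.60 (−2.41 ± 0.19, edgeR adjusted p = 7.36e-06). With the length trend removed SEMA3D and SEMA5A were called lower as well, at −1.34 and −1.62, and SEMA3A, at 0.69, was not called.

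The calls among the receptors for semaphorins depended on transcript length, apart from those of NRP2, PLXNB3 and PLXND1. NRP2 went from 2.13, 2.00 and 2.07 FPKM back up to 14.5, 15.0 and 17.1 (log2 fold change 2.44 ± 0.11, edgeR adjusted p = 4.45e-07), while NRP1, at 14.6, 19.3 and 14.2, overlapped its D70-RO range. NRP2 was 0.12 to 0.23 times NRP1 in the D70 libraries, and 0.78 to 1.20 times in the D150 libraries. PLXNA3, PLXNA4, PLXNB3 and PLXND1 were called higher and no plexin lower. With the length trend removed, the log2 changes of PLXNA3 and PLXNA4 were −0.02 and −0.02, and PLXNA1, PLXNA2 and PLXNC1 were called lower, at −1.37, −1.07 and −1.59. PLXNB3 kept its call, going from 0.56 ± 0.23 to 3.00 ± 0.36 (2.60 ± 0.29, edgeR adjusted p = 5.4e-05). PLXNB2 was at 51.3 ± 1.64, with a change of 0.02 ± 0.08 (edgeR adjusted p = 0.853).

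Of the Slits, SLIT1 fell from 8.84, 6.63 and 9.66 FPKM to 2.14, 2.04 and 2.40 (log2 fold change −2.17 ± 0.14, edgeR adjusted p = 2.26e-06). SLIT2 was at 9.89, 9.89 and 9.26 and led the family in D150-ROs. SLIT3 rose from 0.25 ± 0.04 to 1.22 ± 0.13 (2.31 ± 0.23, edgeR adjusted p = 2.5e-05). ROBO2 stayed high, at 35.1, 31.6 and 42.4, and ROBO1 rose from 3.50 ± 0.67 to 9.39 ± 1.78. In the same step the sums of the ganglion cell, progenitor and pigment epithelium markers fell and that of the photoreceptor markers rose, by the values given above. Their part in the changes of the ephrins, EPHB4 and SLIT1 was not tested.

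From D150-ROs to P1 iMGCs, most Eph receptors, Slits and semaphorins fell, several to 0, and SEMA3C with both neuropilins rose. Of the 56 members tested, 11 were called higher, against 20.0% of all 12896 genes tested, and 26 lower, against 24.1%. The median log2 fold change was −0.56 for the members and −0.05 for all genes, and the median size 1.86 against 0.86. With limma on log2(FPKM + 1), which keeps the FPKM scaling and in which the median of all genes shifts by −0.55, 6 members were called higher and 27 lower, and EFNB1, PLXNA3, PLXNB2, PLXND1 and SEMA3E lost their calls. The share of all genes called by limma is not given here. The 2 groups come from separate tables, whose counts were fitted together, and any batch that follows the tables cannot be told apart from the groups. D150-ROs are shared with the comparison before.

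Of 12 Eph receptors tested, 7 were called lower and EPHB4 alone higher. EPHA8 went from 39.8, 33.6 and 34.7 FPKM to 0 in every P1 library, and it was also at 0 in every P5 library. Against an upper limit of 3 counts over the group, its 7553 counts in D150-ROs mean a level, relative to library totals, at least 2616-fold lower in P1. EPHA10, an Eph receptor without kinase activity, was at 9.24, 8.56 and 9.33 in D150-ROs and at 0 in all 6 iMGC libraries, at least 436-fold lower in P1. EPHA3, EPHA7 and EPHB3 fell to at most 0.41 FPKM, from 12.0 ± 0.73, 6.55 ± 0.14 and 4.14 ± 0.39. What remained was mainly EPHB2, at 42.9, 42.7 and 42.9 (log2 fold change −0.37 ± 0.05, edgeR adjusted p = 7.66e-06, not called), and EPHA2, at 33.0, 33.1 and 34.2. EPHA2, a receptor common in epithelial and cultured cells, had stood at 26.9 ± 0.87 in D150-ROs. EPHB4 rose from 2.58, 2.73 and 3.24 to 12.8, 12.6 and 13.4 (2.83 ± 0.08, edgeR adjusted p = 3.37e-14), below its level in hiPSCs.

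The ephrins moved less. EFNA1 fell from 9.76 ± 0.34 to 1.00 ± 0.40 FPKM and EFNA2 from 6.37 ± 0.62 to 0.74 ± 0.30, and both were called lower. EFNB1 was called higher, with 8.11, 9.61 and 8.94 in D150-ROs and 12.3, 13.2 and 11.6 in P1 iMGCs. EFNB2 was at 12.5, 12.0 and 12.2 and, with EFNB1, made up most of the ephrin sum of P1 iMGCs, 37.0 to 40.8. The change of 5 ephrins, EFNB2 among them, was not called.

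SLIT1 went from 2.14, 2.04 and 2.40 FPKM to 0 in all 6 iMGC libraries, at least 288-fold lower in P1. ROBO2, the most abundant Robo receptor of both RO stages, fell from 35.1, 31.6 and 42.4 to 0.25, 0.08 and 0.12 (log2 fold change −7.50 ± 0.17, edgeR adjusted p = 1.5e-15). ROBO1, its neighbour 947 kb away on chromosome 3, was at 9.19, 8.77 and 8.78, close to its 9.39 ± 1.78 FPKM in D150-ROs. SLIT3 rose from 1.08, 1.25 and 1.34 to 4.13, 4.32 and 4.47 while SLIT2 fell from 9.68 ± 0.36 to 1.61 ± 0.67. The small families thus exchanged members, from SLIT2 and ROBO2 in D150-ROs to SLIT3 and ROBO1 in iMGCs.

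**Figure D4:**
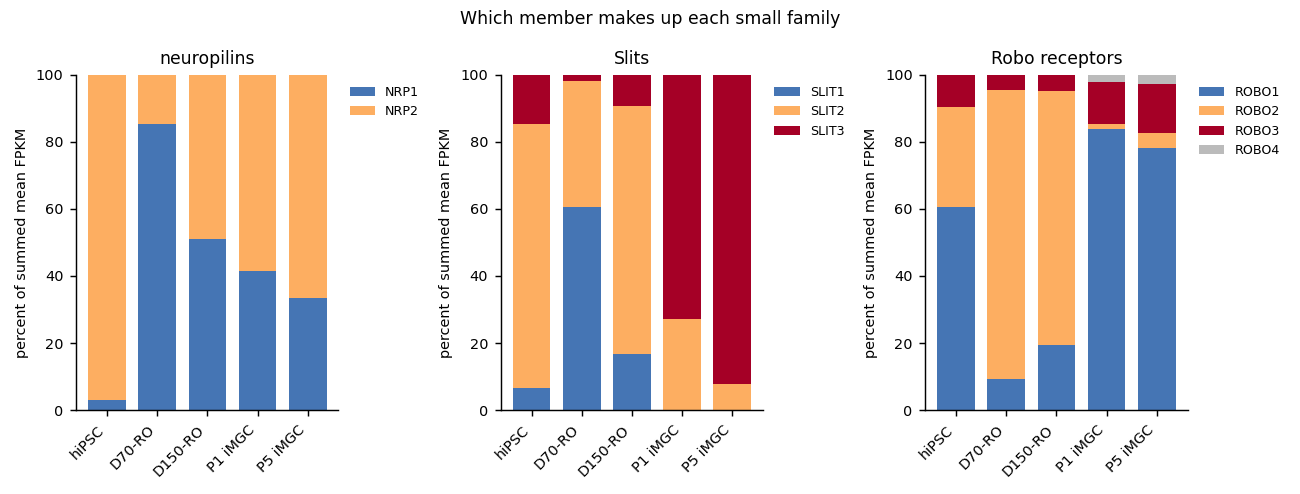
Share of each gene in the summed mean FPKM of its family (y axes, percent, stacked bars) for the neuropilins, Slits and Robo receptors in the 5 groups. NRP2 makes up 96.9% of the neuropilin sum in hiPSCs and 14.8% in D70-ROs, SLIT3 9.34% of the Slit sum in D150-ROs and 92.3% in P5 iMGCs, and ROBO2 75.6% of the Robo sum in D150-ROs and 1.41% in P1 iMGCs.

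Of 19 semaphorins tested, 11 were called lower. SEMA4B fell from 81.3, 71.5 and 75.5 FPKM to 7.15, 6.88 and 5.61 (log2 fold change −3.01 ± 0.06, edgeR adjusted p = 5.05e-16). SEMA3F fell from 66.0, 63.6 and 64.5 to 8.47, 8.35 and 9.65 (−2.40 ± 0.06, edgeR adjusted p = 2.71e-15), and SEMA3A from 40.6 ± 2.66 to 3.84 ± 0.60. With P5 in place of P1 the log2 fold change of SEMA3F was −0.76 and was not called. The 4 class 6 semaphorins, all called lower, fell together from a sum of 70.1 to 73.0 to one of 3.16 to 4.24. SEMA5B was at 7.76, 8.60 and 8.96 in D150-ROs, from 1317 counts, and had 1 count in the 3 P1 libraries, which gives a log2 ratio between −15.7 and −7.94 (95% interval of the counts).

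Against this fall, SEMA3C and SEMA7A rose to be the leading ligands of the iMGCs. SEMA3C, a secreted semaphorin that acts through NRP1, NRP2 and PLXND1, went from 6.08, 7.03 and 9.96 FPKM to 85.9, 89.1 and 86.7 (log2 fold change 4.22 ± 0.12, edgeR adjusted p = 1.55e-14). It alone made up 41.7% of the semaphorin sum in P1 iMGCs, and the ratio of SEMA3C to SEMA3A was 0.14 to 0.27 in D150-ROs and 19.8 to 25.6 in P1. SEMA7A, a lipid-anchored semaphorin that binds integrins and PLXNC1, went from 11.9, 11.7 and 14.0 to 71.2, 65.1 and 69.8 (3.17 ± 0.06, edgeR adjusted p = 1.68e-16). Its receptor PLXNC1 fell in the same libraries from 6.37 ± 0.77 to 0.28 ± 0.12. SEMA3E, the ligand of PLXND1, rose from 1.07 ± 0.08 to 2.49 ± 0.09.

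The receptors of SEMA3C rose with it. NRP2 went from 14.5, 15.0 and 17.1 FPKM to 98.3, 104 and 101 and was the most abundant of all 60 genes in P1 iMGCs (log2 fold change 3.28 ± 0.05, edgeR adjusted p = 2.62e-17). NRP1 went from 14.6, 19.3 and 14.2 to 69.0, 73.1 and 72.5 (3.19 ± 0.07, edgeR adjusted p = 1.21e-15). PLXND1 was at 5.85, 10.1 and 8.99 in D150-ROs and at 14.5, 18.1 and 18.5 in P1, and PLXNB2 at 51.2, 53.0 and 49.8 and at 69.0, 69.5 and 70.8. All P1 libraries were above all D150-RO libraries for these 4 genes. PLXNA4, PLXNB1 and PLXNC1 were called lower. With P5 in place of P1, the log2 fold changes of PLXNA4 and PLXNB1 were −0.22 and −0.81 and were not called, and EPHB6 was called lower at −1.49. The mesenchymal and fibroblast list, with COL1A1 at 2.77 FPKM in D150-ROs and 2000 in P1, rose in the same libraries.

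The promoters of SEMA3C and NRP2 are shown because the ligand and its receptor rose together. RefSeq lists 2 starts for SEMA3C on the minus strand, at chr7:80922340-80922639 and chr7:80919002-80919301, and 1 for NRP2 on the plus strand, at chr2:205682251-205682550 (GRCh38.p14). NRP1 is not among the 54 members matched in the promoter table.
SEMA3C, upstream start: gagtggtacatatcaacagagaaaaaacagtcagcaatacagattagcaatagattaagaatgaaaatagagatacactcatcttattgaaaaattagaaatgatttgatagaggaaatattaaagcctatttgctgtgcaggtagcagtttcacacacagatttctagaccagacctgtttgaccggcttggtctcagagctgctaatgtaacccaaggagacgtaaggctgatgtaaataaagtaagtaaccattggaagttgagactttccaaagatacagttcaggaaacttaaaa
SEMA3C, downstream start: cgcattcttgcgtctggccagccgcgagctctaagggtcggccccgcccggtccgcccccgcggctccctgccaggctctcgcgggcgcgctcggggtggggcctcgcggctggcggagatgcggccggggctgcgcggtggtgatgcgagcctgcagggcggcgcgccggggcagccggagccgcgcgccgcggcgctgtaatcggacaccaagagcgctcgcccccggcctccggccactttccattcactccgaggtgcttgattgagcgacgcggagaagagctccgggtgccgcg
NRP2: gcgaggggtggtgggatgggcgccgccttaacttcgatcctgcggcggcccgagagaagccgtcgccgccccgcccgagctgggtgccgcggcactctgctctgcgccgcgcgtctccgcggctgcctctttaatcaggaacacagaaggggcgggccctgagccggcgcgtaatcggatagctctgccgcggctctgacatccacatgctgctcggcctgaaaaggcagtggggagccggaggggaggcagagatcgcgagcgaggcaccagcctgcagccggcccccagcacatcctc
The upstream window of SEMA3C has 36.0% G or C and 2 CpG dinucleotides, the downstream window 75.7% and 46, and the NRP2 window 70.0% and 33. Which start the cells use cannot be read from gene-level values.

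**Figure D5:**
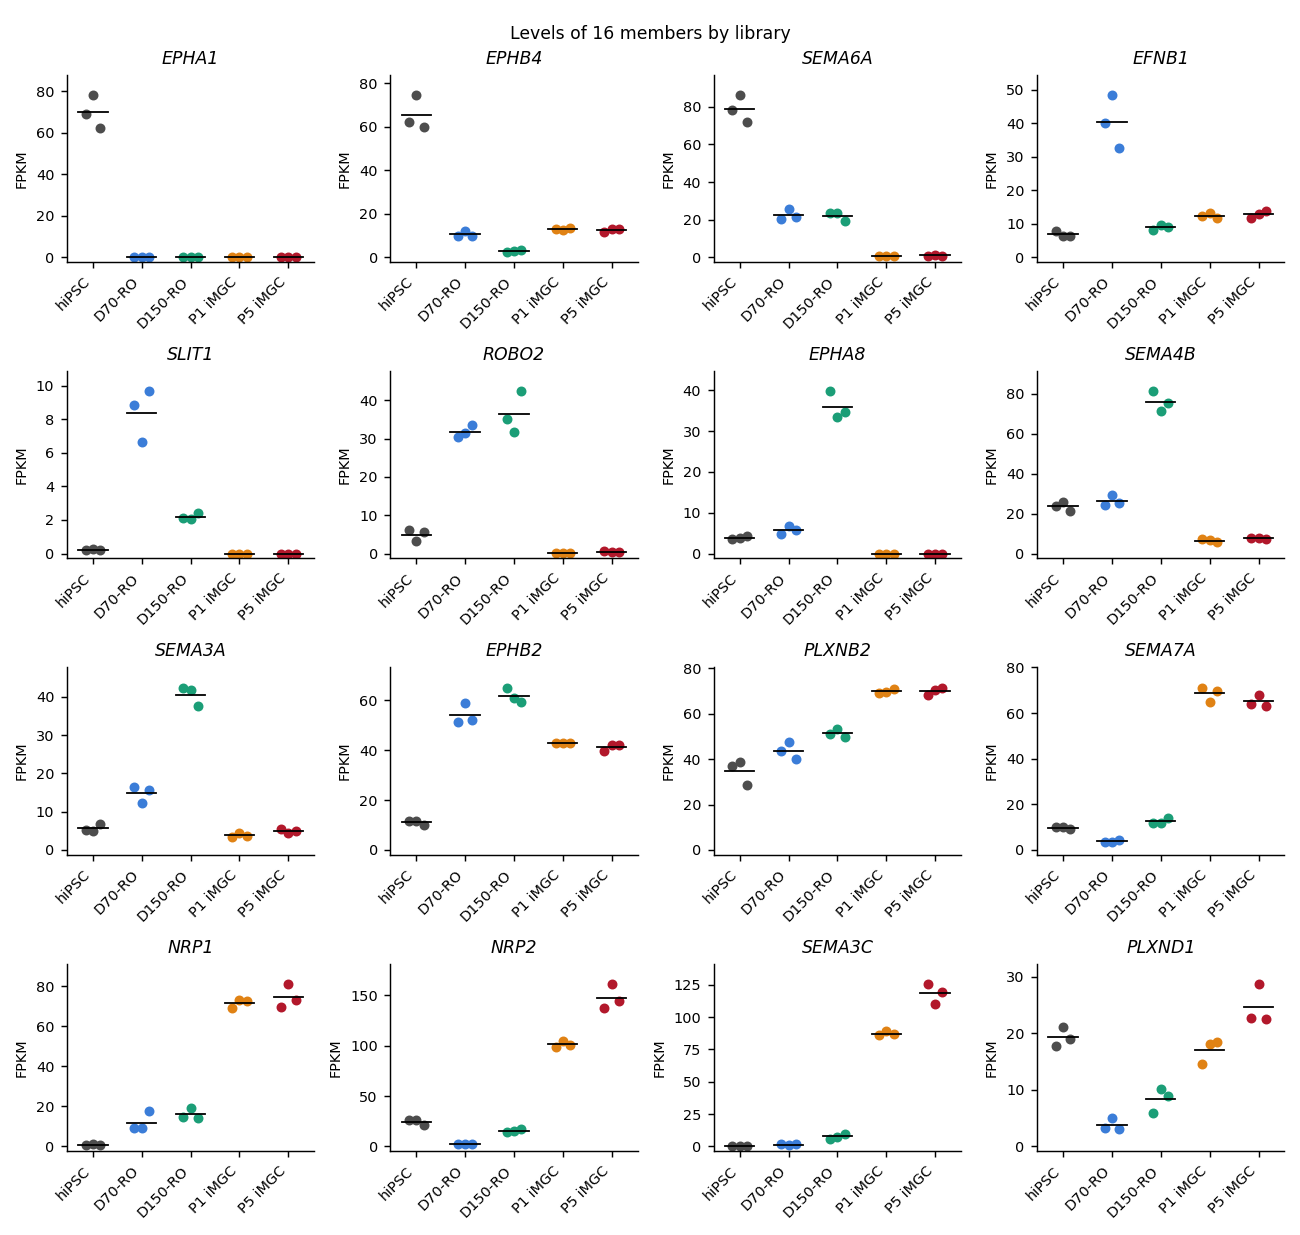
FPKM (y axes, from 0) of 16 members in the 5 groups; points are the 3 libraries of a group and lines their mean. EPHA1, EPHB4 and SEMA6A are highest in hiPSCs, EFNB1 and SLIT1 in D70-ROs, EPHA8, SEMA4B and SEMA3A in D150-ROs, and NRP1, NRP2, SEMA3C and SEMA7A in the iMGCs.

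Between P1 and P5 iMGCs few of the members tested changed 2-fold or more. Of the 42 tested, 4 were called higher, against 1.94% of all 11366 genes tested, and 1 lower, against 0.977%. The median log2 fold change was 0.11 for the members and −0.00 for all genes, and the median size 0.19 against 0.12. P1 iMGCs are shared with the comparison before. SEMA3F rose from 8.47, 8.35 and 9.65 FPKM to 24.5, 27.9 and 23.9 (log2 fold change 1.65 ± 0.07, edgeR adjusted p = 1.46e-15). PLXNA4, a plexin that pairs with NRP1, rose from 0.85, 0.58 and 0.63 to 1.95, 1.97 and 1.92 (1.66 ± 0.12, edgeR adjusted p = 3.54e-11), and PLXNA2 from 1.67, 1.90 and 1.89 to 3.56, 3.45 and 3.51 (1.01 ± 0.07, edgeR adjusted p = 2.98e-11). The ranges of these 3 genes did not overlap. EFNA2 was called higher on 35 and 74 counts, with overlapping values of 0.59, 1.08 and 0.54 against 1.79, 1.78 and 1.04 (1.13 ± 0.35, edgeR adjusted p = 0.0157). Its call was lost without P1 replicate 1 or 3 or P5 replicate 1 or 2, with a lowest log2 fold change of 0.94, and with DESeq2. That of PLXNA2 was lost without P1 replicate 1, at 0.94, and with all 15 libraries in 1 fit, at 0.99.

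SLIT2 was the member called lower, from 1.37, 1.10 and 2.37 FPKM to 0.57, 0.48 and 0.57 (log2 fold change −1.33 ± 0.18, edgeR adjusted p = 1.87e-06). SLIT3 went from 4.31 ± 0.17 to 6.49 ± 0.69 FPKM, a change under 2-fold, so that SLIT3 was 10.2 to 15.0 times SLIT2 in P5 iMGCs. The leading genes of P1 remained at the top in P5. NRP2 was at 137, 161 and 144 (0.62 ± 0.04, edgeR adjusted p = 6.22e-12), SEMA3C at 126, 110 and 120 (0.44 ± 0.04, edgeR adjusted p = 5.71e-09), and NRP1 at 69.6, 81.1 and 73.1 (0.11 ± 0.04, edgeR adjusted p = 0.0273). None of these 3 changes reached 2-fold, and the ranges of NRP1 overlapped. The ratio of NRP2 to NRP1 was 1.39 to 1.43 in P1 and 1.97 to 1.99 in P5. EPHA8, EPHA10 and SLIT1 were at 0 counts in both passages, and 18 members in all were too low to be tested.

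EPHA2, PLXNA1 and ROBO3 were tested in all 4 comparisons and called in none. EPHA2 lay near the 2-fold limit and was called higher in D70-ROs against hiPSCs without hiPSC replicate 2 (log2 fold change 1.09) and with limma on log2(FPKM + 0.1) (1.04), and in P1 iMGCs with the length trend removed (1.08). PLXNA1 was called lower in D150-ROs with the length trend removed. EPHA2 ranged from 10.6 FPKM in an hiPSC library to 34.2 in a P1 library. PLXNA1, a common partner of NRP1, stayed between 11.7 and 23.7 FPKM in all 15 libraries, and ROBO3, a receptor of midline crossing, between 1.03 and 2.30. ROBO4 and SEMA3G did not reach the level needed for a test in any comparison, with SEMA3G at most at 1.54 FPKM in an hiPSC library.

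Other genes of the same pathways were listed for comparison: 16 netrins and receptors, 4 adhesion co-receptors and 47 intracellular effectors. Of the 61 tested in D70-ROs against hiPSCs, 16 were called higher and 10 lower, where 22.5% and 21.1% of all genes tested were. In D150-ROs against D70-ROs, 13 and 12 of 61 were, against 16.6% and 16.7% of all genes. In P1 iMGCs against D150-ROs, 12 and 25 of 61 were, against 20.0% and 24.1%. In P5 against P1, 2 and 0 of 46 were, against 1.94% and 0.977%. In D70-ROs the adhesion co-receptors NRCAM and CNTN2 rose the most, to 33.2 and 29.0 FPKM from 0.99 and 1.63, and VAV3 and UNC5D fell the most. In D150-ROs the Rac regulators VAV3 and CHN2 rose the most, CHN2 to 109 FPKM, and CNTN2, to 3.85, and UNC5C fell the most. In P1 iMGCs MICAL2, an enzyme that acts on actin, rose from 3.66 to 117 FPKM and NTNG1 from 0.31 to 3.17. DPYSL5, a collapsin response mediator of neurons, fell from 46.6 FPKM to 0 and CHN2 to 0.26. In P5 iMGCs the 2 called were PAK3, at 1.68 FPKM, and UNC5C, at 1.45.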

How the data were processed

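RNA was measured by poly(A) RNA-seq in 15 libraries, 3 per group. The authors used HISAT2 for mapping of paired-end reads, StringTie for assembly and RSEM for gene quantification. Versions, genome build and annotation are not given in the sources used here. They deposited expected counts, which are not normalized, and FPKM values, which are scaled to transcript length and mapped fragments. The description of the data set names a batch correction without saying which values it touched. In the counts, 8.21% to 10.05% of values were not whole, and they were rounded.

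Groups came from the sample labels, and 6 iMGC columns of another table that name no passage were not used. Each comparison used its 2 groups only, with genes at 1 FPKM or more in at least 3 of the 6 libraries, TMM scaling and edgeR's quasi-likelihood test (edgeR 4.0.16, R 4.3.3). P-values were adjusted by Benjamini-Hochberg over all genes tested, and a call needed an adjusted p under 0.05 and a 2-fold change. Levels of 0 were replaced by a limit of 3 counts over the group for bounds, which cover counting error only. Full statistics are given for the 5 largest called rises and falls and the 3 highest members of either group in each comparison. Alternatives used DESeq2 1.42.0, limma 3.58.1 on log2(FPKM + 1) or log2(FPKM + 0.1), other filters and scalings, a replicate block and each library left out. On simulated data with 200 genes changed 4-fold in 12954 genes (D70-ROs against hiPSCs), edgeR recovered 100%, DESeq2 98.5% and limma 94.5%. The counts were drawn with edgeR's own dispersions, so this says nothing about changes near the 2-fold limit. False calls are not given here. Deviations of libraries with the same number correlated between −0.07 and 0.34 over 12 pairs, so that the numbers were not taken as pairs. Positions were taken from GENCODE (GRCh38) and promoters from RefSeq (GRCh38.p14). The level of 1 marker gene is not reported here. The members and lists were chosen with earlier results of these data known.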

Additional observations from a re-analysis of the deposited data

How the results depend on the processing

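With the replicate block, 24 members were called higher and 13 lower in D70-ROs against hiPSCs, 18 and 13 in D150-ROs against D70-ROs, 11 and 26 in P1 iMGCs against D150-ROs, and 4 and 1 in P5 against P1, and the block changed no call. Tested against a 2-fold change, 11 members were higher in the step from D70-ROs to D150-ROs, and 2 were higher and 0 lower in P5 iMGCs by edgeR. On the adjusted p alone, 21 members were lower in D150-ROs, 19 higher in P1 iMGCs, and 16 higher and 6 lower in P5. With limma on log2(FPKM + 1), 6 were higher in P1 iMGCs against D150-ROs, and 1 was higher and 0 lower in P5. With log2(FPKM + 0.1), 2 were higher in P5, and without a filter 2 were lower there. Leaving out 1 library gave 2 to 4 higher members in P5 iMGCs. The share of all genes called under these settings is not given here. These counts therefore do not set the members apart from other genes.

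The calls of EPHB1 (without D70-RO replicate 1 or 3 or D150-RO replicate 2), PLXNA4 and SEMA3A (D70-RO replicate 2), SEMA4A (D70-RO replicate 3), PLXNA3 (D70-RO replicate 3 or D150-RO replicate 1) and ROBO1 (D150-RO replicate 1) were lost in D150-ROs against D70-ROs. EPHA6 was lost in D70-ROs against hiPSCs without hiPSC or D70-RO replicate 2. In P1 iMGCs against D150-ROs, PLXNA3 and SEMA4G were lost without D150-RO replicate 3, and PLXNB1 and SEMA4G without P1 replicate 3.

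Among the 49 changes given with full statistics, direction turned for EPHB2 and PLXNB2, which were not called. With the length trend removed, the change was −0.12 for PLXNB2 in D70-ROs against hiPSCs, and −0.0911 for EPHB2 and −0.51 for PLXNB2 in D150-ROs against D70-ROs. That of PLXNB2 in the last comparison was −0.085 with upper-quartile scaling and −0.015 to 0.0545 with 1 library left out. Beyond these, the called rises of PLXNA3 and PLXNA4 in D150-ROs turned to −0.02 with the length trend removed, and the FPKM ratios of 8 members that were not called differed in sign from the fit in P1 iMGCs, with ROBO1 at 0.66 in the fit. Of 797 values for the 49 changes, 765 kept direction and side of the threshold, 18 lost their call, 8 gained one and 6 turned. The causes were not tested.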
